A study of Homo sapiens with 12 samples.

Results

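The genes described here are 10 genes of pericellular proteolysis, the matrix metalloproteinases (MMPs) MMP1, MMP2, MMP3, MMP9, MMP10, MMP13 and MMP14 and the tissue inhibitors of metalloproteinases (TIMPs) TIMP1, TIMP2 and TIMP3. They were chosen by name from a table of read counts for 58735 genes, and all 10 were found in it. RNA was sequenced from HaCaT, an immortalized human skin keratinocyte line, and from TIGK, an immortalized line from human gingiva, to compare how skin and oral keratinocytes meet oxidative stress. Each line was maintained in DermaLife K Keratinocyte Complete Medium and either left untreated (Hctrl and Tctrl) or exposed to 5 mM H2O2 for 3 h (Hhp and Thp), and each of the 4 groups held 3 libraries. Each tissue is thus represented by 1 immortalized line in monoculture. The labels do not say whether replicates came from separate cultures, so p-values measure the spread between these libraries, which may be technical. The treatment field of the labels writes the added compound with a different last digit in each replicate, whereas the treatment protocol names H2O2 for all treated samples.

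MMPs are zinc-dependent endopeptidases that cleave collagens, laminins, fibronectin and cell surface proteins, and most are secreted as inactive zymogens. TIMPs bind the active site of MMPs, and TIMP3, which stays bound to the matrix, also inhibits several ADAM and ADAMTS proteases. In skin and oral epithelium the keratinocytes at wound edges are known for inducible collagenase and stromelysin expression, and TIMP2 takes part with MMP14 in activating pro-MMP2 at the cell surface.

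Library totals lay between 30426401 and 49034244 counts, and replicates differed by more than counting noise in all 12 pairs, their chi-square divided by the degrees of freedom being 4.53 to 29.7. The library that stood furthest from its replicates was HaCaT H2O2 replicate 3 (20.1 and 29.7 against the others), followed by TIGK control replicate 3 (11.8 and 15.2). The mitochondrially encoded share of the counts moved with the treatment, from 3.327-3.446% to 1.391-1.5% in TIGK and from 6.102-6.261% to 3.303-3.507% in HaCaT, and its part in the results was not tested. All 10 keratinocyte markers were detected in every group, with a summed level of 15500 to 18800 RPKM (reads per kilobase of gene length, scaled to the library's normalized size). The summed markers of fibroblasts reached at most 2.58 RPKM, those of melanocytes 0.723, those of immune cells 1.99 and those of endothelial cells 0.158.

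Promoter windows of RefSeq (GRCh38.p14) were found for 4 of the 10 genes, MMP10, MMP14, TIMP1 and TIMP3. TIMP1 and TIMP3 were chosen because their levels differed between the lines and after H2O2, for TIMP1 after H2O2 in HaCaT alone. MMP10 was chosen because it lies in the chromosome 11 cluster with MMP1 and MMP3. The windows of MMP10, TIMP1 and TIMP3 are shown. Each is written 5′ to 3′ on the gene's strand from 250 bases before the RefSeq start and ends before the gene as the count table places it: MMP10 at chr11:102780629-102780878 (minus strand), TIMP1 at chrX:47582186-47582312 (plus strand) and TIMP3 at chr22:32801455-32801700 (plus strand). Capitals mark matches, on either strand, to an AP-1 element with any middle base (TGANTCA), to the core of the promoter box that binds TBP (TATAAA) or to the GC box (GGGCGG).
MMP10: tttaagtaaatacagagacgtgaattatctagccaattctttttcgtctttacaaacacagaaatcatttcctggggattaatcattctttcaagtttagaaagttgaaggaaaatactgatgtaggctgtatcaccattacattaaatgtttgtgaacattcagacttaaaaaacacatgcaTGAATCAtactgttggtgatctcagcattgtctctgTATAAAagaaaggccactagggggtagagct
TIMP1: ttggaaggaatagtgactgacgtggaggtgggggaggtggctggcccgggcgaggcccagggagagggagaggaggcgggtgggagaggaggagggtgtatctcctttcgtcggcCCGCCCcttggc
TIMP3: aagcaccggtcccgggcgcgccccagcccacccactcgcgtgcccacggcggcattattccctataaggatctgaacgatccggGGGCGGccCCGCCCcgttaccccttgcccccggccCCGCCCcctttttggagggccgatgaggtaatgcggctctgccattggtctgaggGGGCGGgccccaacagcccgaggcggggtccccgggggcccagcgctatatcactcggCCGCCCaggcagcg
The MMP10 window held TGAATCA at bases -67 to -61 and TATAAA at -31 to -26, and no GC box. Among 35116 windows of 250 bases, 6.57% held TGANTCA and 10.7% held TATAAA. The canonical AP-1 element TGAGTCA, which 4.2% of windows held and TGANTCA includes, was in none of the 4 windows. GGGCGG or its complement was found 5 times in TIMP3, at 2 places in TIMP1 (the one at -45 to -40 lies beyond the stretch printed) and at 1 in MMP14, and 42.6% of windows held it. These matches describe letters, not bound sites.

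By level per gene length, untreated TIGK was dominated by inhibitor transcripts. TIMP3 stood first with 125.3 ± 5.873 RPKM (SD, n = 3), followed by MMP14 (43.92 ± 0.6597), TIMP1 (41.7 ± 4.441), MMP1 (24.22 ± 2.769) and TIMP2 (18.06 ± 0.7272). MMP10, MMP9, MMP2 and MMP3 lay between 6.756 and 1.882 RPKM, and MMP13 was lowest with 0.7201 ± 0.08019. The libraries of neighbours in this order overlapped for MMP14 and TIMP1 alone. Untreated HaCaT had another order, with TIMP1 first (71.03 ± 1.055 RPKM), then MMP14 (64.5 ± 3.612), MMP1 (29.99 ± 2.907) and TIMP3 (23.96 ± 1.458). MMP2 and MMP10 (9.499 and 8.334 RPKM) overlapped, MMP3 followed with 3.58 ± 0.2293, TIMP2 and MMP9 (1.872 and 1.636) overlapped, and MMP13 was again lowest (0.7023 ± 0.06597).

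After H2O2 the first and last places in TIGK held TIMP3 (95.57 ± 3.026 RPKM) and MMP3 (0.5993 ± 0.1193), with MMP3 now under MMP13, and TIMP1 (45.37 ± 1.263) stood above MMP14 (39.24 ± 0.1628) in every library. In treated HaCaT, TIMP1 reached 97.97 ± 10.72 RPKM, while TIMP2, MMP9, MMP3 and MMP13, between 1.872 and 0.9206 RPKM, each overlapped the next.

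The sum of the 3 TIMPs was 185 ± 4.31 RPKM in untreated TIGK and 159.2 ± 3.44 after H2O2, and 96.87 ± 0.413 and 118.3 ± 9.07 in HaCaT (SD, n = 3 each). The sum of the 7 MMPs was 83.94 ± 4.55 and 87.55 ± 4.14 in TIGK, and 118.2 ± 2.45 and 112.4 ± 4.11 in HaCaT. The ratio of TIMP to MMP transcripts was 2.207 ± 0.0762 in untreated TIGK (2.12, 2.262 and 2.239 in the libraries) and 1.821 ± 0.103 after H2O2 (1.755, 1.768 and 1.94). In HaCaT it was 0.8195 ± 0.0175 without H2O2 (0.8007, 0.8354 and 0.8223) and 1.052 ± 0.0693 with it (1.013, 1.011 and 1.132). The ratio was thus lower after H2O2 than before in TIGK and higher in HaCaT, and the libraries of the 4 groups did not overlap. The ratio covers these 10 genes alone, and its level depends on which MMPs are summed. MMP28, outside the sums, had means of 9.194 RPKM in untreated and 10.4 in treated HaCaT, and 2.937 and 3.465 in TIGK. These sums are descriptions of RNA without a test, and say nothing of protein or of enzyme activity.

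The inhibitor pool was made of different genes in the lines. TIMP3 held 67.69 ± 2.24% of the summed TIMP level in untreated TIGK and 60.04 ± 1.01% after H2O2, against 24.73 ± 1.4% and 15.71 ± 2.43% in HaCaT. TIMP1 held 22.55 ± 2.52% and 28.51 ± 0.424% in TIGK, and 73.34 ± 1.37% and 82.69 ± 2.7% in HaCaT. Among the proteases, MMP14 made up 44.88% to 54.55% of the summed level in the group means and MMP1 25.36% to 35.6%.

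**Figure D1:**
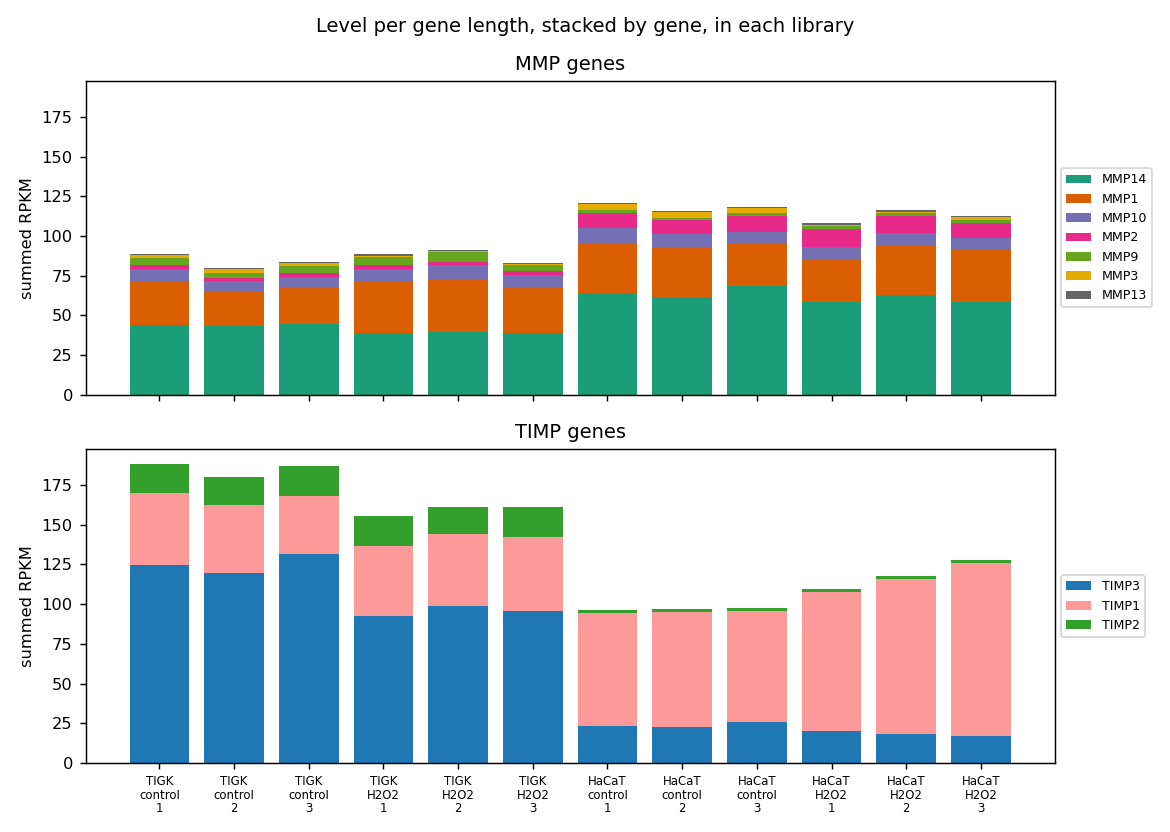
Summed level per gene length (RPKM, stacked by gene) of the 7 MMP genes (top) and the 3 TIMP genes (bottom) in each of the 12 libraries. TIMP bars reach 180.1 to 188.1 RPKM in untreated TIGK, mostly TIMP3, and 96.58 to 97.34 in untreated HaCaT, mostly TIMP1.

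After H2O2, MMP1 rose and MMP3 and TIMP3 fell in TIGK, and TIMP1 rose and MMP3 and TIMP3 fell in HaCaT. These were 3 of 10 members in each line, past an adjusted p of 0.01 in the quasi-likelihood test of edgeR, adjusted by Benjamini-Hochberg over the 16618 genes tested (edgeR adjusted p). All 10 members passed the filter on low counts. Of all genes tested, 23.2% were called in TIGK (10.2% higher, 12.9% lower) and 34.1% in HaCaT (18.9% higher, 15.2% lower), so the members' share did not stand out from the background. Their median change on the log2 scale was 0.066 in TIGK and 0.0013 in HaCaT, beside 0.0084 and 0.038 over all genes tested. DESeq2 also called 3 members in each line, beside 28% of all genes in TIGK and 37.2% in HaCaT. The treated and untreated libraries did not overlap for 5 members in TIGK and 4 in HaCaT, as for 51.1% and 53.8% of all genes.

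The lines differed in more of these genes than treatment changed, as they did over all genes tested. Untreated HaCaT exhibited higher MMP1, MMP2, MMP3, MMP14 and TIMP1 and lower MMP9, TIMP2 and TIMP3 than untreated TIGK, 8 of 10 members, beside 59.9% of all genes tested (29.1% higher, 30.8% lower). After H2O2 the difference was past the limit for 7 members, the same ones without MMP1, beside 60% of all genes (30.2% higher, 29.8% lower). The median of the members was 0.31 and 0.093, beside -0.007 and 0.018 over all genes. The libraries of the lines did not overlap for 7 members without H2O2 and 9 with it, as for 73.3% and 71.3% of all genes. No member passed the limit in the test of the difference between the responses of the lines, in which 5.3% of all genes were called. The response was more positive in TIGK than in HaCaT for 2.32% of all genes and less positive for 2.98%. DESeq2 called 0 members there, beside 8.58% of all genes. In edgeR 4 members (MMP1, MMP2, MMP10 and TIMP1) had an unadjusted p under 0.05, as did 25.8% of all genes. The comparisons share libraries, so their calls are not independent of each other.

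**Figure D2:**
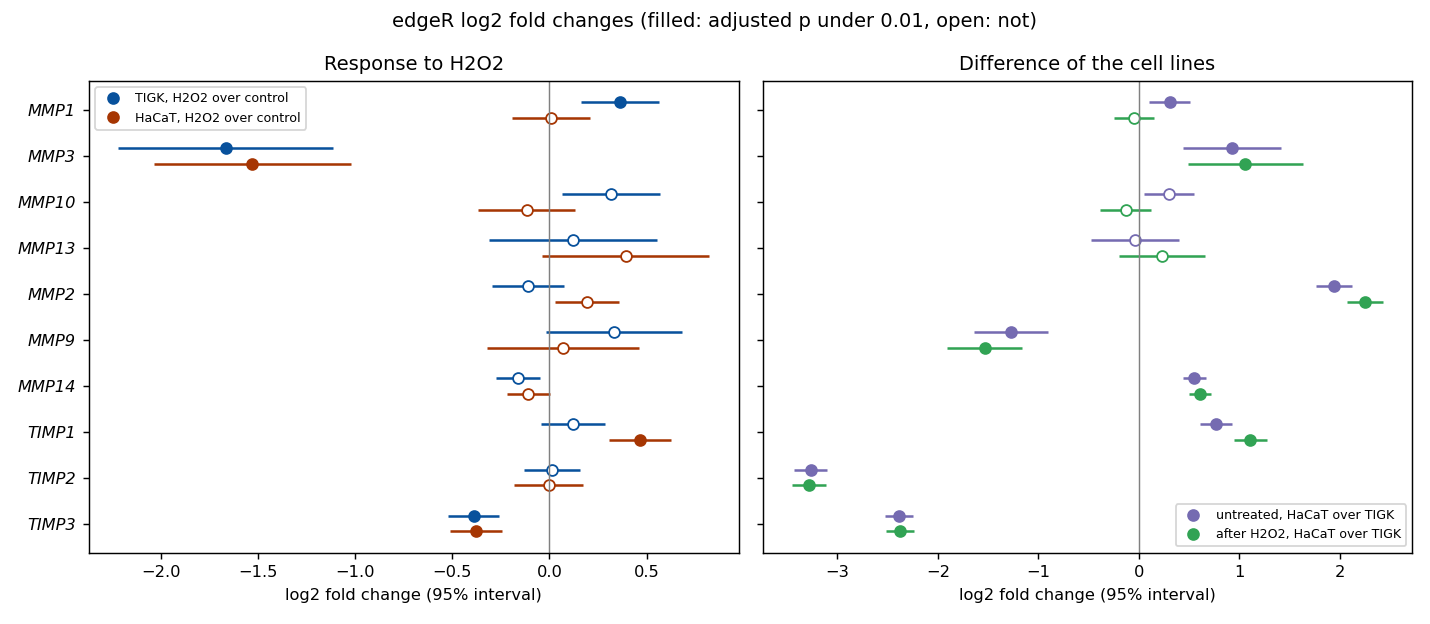
Log2 fold changes (points) with 95% intervals (lines) of the 10 genes from edgeR, for H2O2 over control in each line (left) and HaCaT over TIGK under each treatment (right), filled where the adjusted p was under 0.01. MMP3 lies at -1.67 and -1.53 on the left, and TIMP2 at -3.27 and -3.28 on the right.

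MMP1 (ENSG00000196611, chr11:102789920-102798160, minus strand) is the interstitial collagenase, which cleaves fibrillar collagen and is made by keratinocytes that move over dermal collagen. Its normalized counts (counts scaled by TMM to the mean depth) were 1954, 1574 and 1669 in untreated TIGK and 2312, 2396 and 1989 after H2O2. In HaCaT they were 2334, 2178 and 1922 untreated and 1924, 2184 and 2361 treated. All treated TIGK libraries lay above the untreated ones, whereas the HaCaT groups overlapped. On the log2 scale MMP1 changed by 0.36 ± 0.0959 (SE) in TIGK (edgeR adjusted p = 0.00627) and by 0.0069 ± 0.0955 in HaCaT (edgeR adjusted p = 0.97), and the difference of these responses was 0.36 (95% interval 0.074 to 0.64, edgeR adjusted p = 0.0969). The rise in TIGK was lost without TIGK control replicate 2 (edgeR adjusted p = 0.0317), TIGK control replicate 3 (0.0254), TIGK H2O2 replicate 1 (0.0287) or TIGK H2O2 replicate 2 (0.0293), within a range of 1.91e-06 to 0.0317 over all 20 alternatives.

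Between the untreated lines MMP1 was higher in HaCaT by a log2 value of 0.31 ± 0.0959 (edgeR adjusted p = 0.00798), although the libraries overlapped. That call was lost without each of 6 libraries in turn, TIGK control replicates 2 and 3, TIGK H2O2 replicate 1, HaCaT control replicates 1 and 2 and HaCaT H2O2 replicate 2 (edgeR adjusted p = 0.0467, 0.0291, 0.0116, 0.0499, 0.024 and 0.0106), and with relative log expression factors (0.0106) or library totals (0.0307) in place of TMM, in a range of 2.64e-05 to 0.0499. After H2O2 the difference was -0.049 (95% interval -0.25 to 0.15).

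MMP13 (ENSG00000137745, chr11:102942995-102955734, minus strand), another collagenase, had 65 to 99 raw counts per library, and was the lowest member per length in all groups but treated TIGK, where MMP3 was lower. TIGK had 66.1, 73.61 and 82.58 normalized counts untreated and 82.38, 80.89 and 78.38 after H2O2, and HaCaT had 71.06, 79.57 and 66.15 untreated and 105.7, 90.94 and 87.54 treated. Only in HaCaT did the treated libraries all lie above the untreated ones. Its log2 fold change there was 0.39 (95% interval -0.038 to 0.82, edgeR adjusted p = 0.126), and no comparison of MMP13 passed the limit.

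MMP3 (ENSG00000149968, chr11:102835801-102843803, minus strand), stromelysin-1, cleaves laminin, fibronectin and proteoglycans and activates other pro-MMPs. Its normalized counts were 161.7, 147.2 and 110.8 in untreated TIGK and 52.21, 46.63 and 34.84 after H2O2. HaCaT had 278.9, 273 and 246.8 untreated and 73.43, 62.96 and 138.8 treated. MMP3 was lower in every treated library than in any untreated library of its line, and one treated HaCaT library, replicate 3, lay well above the other two. The fall was 3.17-fold in TIGK (log2 fold change -1.67 ± 0.264, edgeR adjusted p = 7.86e-05) and 2.89-fold in HaCaT (-1.53 ± 0.241, edgeR adjusted p = 5.43e-05), the largest change of any member in either line. Without HaCaT H2O2 replicate 3 the latter was -1.96. The responses differed by -0.14 (95% interval -0.88 to 0.61), an interval wide enough to hold differences of either sign.

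MMP3 was also higher in HaCaT than in TIGK, 1.9-fold in untreated cells (log2 fold change 0.93 ± 0.232, edgeR adjusted p = 0.00158) and 2.09-fold after H2O2 (1.06 ± 0.272, edgeR adjusted p = 0.00195). The untreated difference missed the limit without TIGK control replicate 3 (0.78, edgeR adjusted p = 0.0112, the highest of its 20 alternatives, the lowest being 6.64e-06). The difference after H2O2 missed it without TIGK H2O2 replicate 3 (0.85, edgeR adjusted p = 0.0233) or HaCaT H2O2 replicate 3 (0.63, edgeR adjusted p = 0.0281), in a range of 4.25e-05 to 0.0281.

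MMP10 (ENSG00000166670, chr11:102770503-102780628, minus strand), stromelysin-2, is made by keratinocytes at wound edges. TIGK had 500.3, 395 and 398.3 normalized counts untreated and 512.9, 550.1 and 547.1 after H2O2, and HaCaT had 592.9, 563.6 and 439.4 untreated and 497.3, 511.8 and 463.3 treated. The treated TIGK libraries lay above the untreated ones, the closest pair being 500.3 and 512.9. MMP10 stood at a log2 value of 0.32 ± 0.12 after H2O2 in TIGK (edgeR adjusted p = 0.0466) and at -0.12 ± 0.119 in HaCaT (edgeR adjusted p = 0.445), neither past the limit. Untreated HaCaT exceeded untreated TIGK by 0.3 (edgeR adjusted p = 0.0309), with overlapping libraries, and this passed the limit without TIGK control replicate 1 (0.42, edgeR adjusted p = 0.00697) or HaCaT control replicate 3 (0.43, edgeR adjusted p = 0.00375), in a range of 0.00375 to 0.153.

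MMP10, MMP1, MMP3 and MMP13 lie in 185.2 kb of chromosome 11 (chr11:102770503-102955734), all on the minus strand, with MMP12 among them. Of these neighbours MMP3 alone passed the limit in both responses, and in opposite direction to MMP1 in TIGK. WTAPP1, a pseudogene on the opposite strand that overlaps MMP1, MMP3 and MMP10, had 1 to 10 raw counts per library.

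The gelatinases cleave denatured collagen and the type IV collagen of basement membranes. MMP2 (ENSG00000087245, chr16:55389700-55506691, plus strand) had 436.3, 411.6 and 476.7 normalized counts in untreated TIGK and 415.4, 415.9 and 396.7 after H2O2. In HaCaT it had 1633, 1607 and 1864 untreated and 2040, 2006 and 1794 treated. Every HaCaT library lay above every TIGK library, while treated and untreated libraries overlapped in each line. MMP2 was 3.85-fold higher in HaCaT untreated (log2 fold change 1.95 ± 0.0852, edgeR adjusted p = 1.91e-13) and 4.76-fold higher after H2O2 (2.25 ± 0.0858, edgeR adjusted p = 2.58e-14). Its response was -0.11 ± 0.0893 in TIGK and 0.19 ± 0.0785 in HaCaT (edgeR adjusted p = 0.36 and 0.0496).

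MMP9 (ENSG00000100985, chr20:46008908-46016561, plus strand), the gelatinase typical of activated epithelium, went the other way between the lines. TIGK had 378.3, 266.5 and 367.9 normalized counts untreated and 431.6, 500.6 and 345.2 after H2O2, and HaCaT had 166.6, 109.4 and 140.2 untreated and 155.8, 146.9 and 137.7 treated. All TIGK libraries lay above all HaCaT libraries, and treatment left the groups of each line overlapping. MMP9 was 2.41-fold lower in HaCaT untreated (log2 fold change -1.27 ± 0.178, edgeR adjusted p = 3.35e-06) and 2.9-fold lower after H2O2 (-1.53 ± 0.178, edgeR adjusted p = 3.05e-07). The antisense gene SLC12A5-AS1, which overlaps MMP9, had 3 to 40 raw counts in TIGK and 0 to 3 in HaCaT.

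MMP14 (ENSG00000157227, chr14:22836557-22849027, plus strand), the membrane-bound MT1-MMP that activates pro-MMP2 and cleaves pericellular collagen, had the highest level per length of the 7 MMP members in all groups. Its normalized counts were 7102, 7019 and 7231 in untreated TIGK and 6343, 6389 and 6344 after H2O2. HaCaT had 10240, 10010 and 11120 untreated and 9430, 10220 and 9425 treated. The HaCaT libraries all lay above the TIGK libraries, and in TIGK the treated libraries lay below the untreated ones. MMP14 was 1.47-fold higher in HaCaT untreated (log2 fold change 0.55 ± 0.0532, edgeR adjusted p = 2.11e-08) and 1.52-fold higher after H2O2 (0.61 ± 0.0533, edgeR adjusted p = 5.85e-09). Its response was -0.16 ± 0.0532 in TIGK (edgeR adjusted p = 0.0231) and -0.11 ± 0.0529 in HaCaT (edgeR adjusted p = 0.0996).

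**Figure D3:**
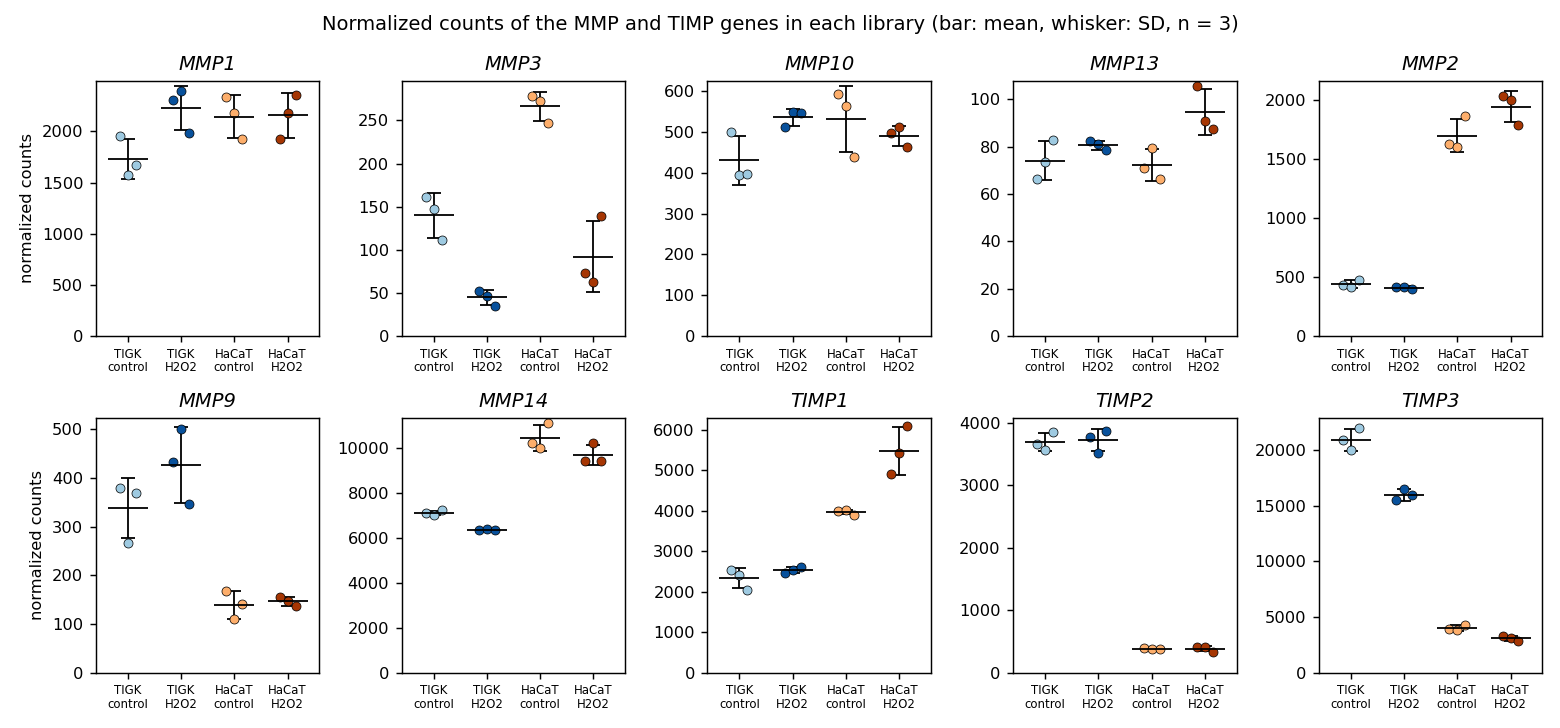
Normalized counts (linear axes from 0, 1 panel per gene) of the 10 genes in each library of the 4 groups, with the mean (bar) and SD (whisker, n = 3). MMP3 is lower in all treated libraries of each line, and TIMP2 and TIMP3 are higher in all TIGK libraries than in any HaCaT library.

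TIMP1 (ENSG00000102265, chrX:47582313-47586789, plus strand), a secreted inhibitor that also binds pro-MMP9, was the inhibitor that rose. HaCaT had 3987, 4026 and 3910 normalized counts untreated and 4904, 5438 and 6101 after H2O2, and TIGK had 2533, 2412 and 2055 untreated and 2469, 2536 and 2610 treated. All treated HaCaT libraries lay above the untreated ones, with replicate 3 highest, and the TIGK groups overlapped. The rise in HaCaT was 1.38-fold (log2 fold change 0.46 ± 0.0762, edgeR adjusted p = 8.16e-05), and 0.38 on the log2 scale without HaCaT H2O2 replicate 3 (edgeR adjusted p = 0.000237, in a range of 9.25e-10 to 0.000843 over the alternatives). In TIGK the value was 0.12 ± 0.078 (edgeR adjusted p = 0.238). The difference of the responses, TIGK minus HaCaT, was -0.34 (95% interval -0.57 to -0.11) and missed the limit (edgeR adjusted p = 0.0475), but passed it without TIGK control replicate 3 (-0.43, edgeR adjusted p = 0.00808, in a range of 0.00808 to 0.222).

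Between the lines TIMP1 was 1.7-fold higher in HaCaT untreated (log2 fold change 0.77 ± 0.0776, edgeR adjusted p = 4.43e-08) and 2.16-fold higher after H2O2 (1.11 ± 0.0775, edgeR adjusted p = 2.16e-10), with no overlap of libraries. TIMP1 lies within SYN1 on the opposite strand, and SYN1 had 321 to 552 raw counts per library in HaCaT and 0 to 6 in TIGK. Strand use in the counting is not given in the sources used here, so reads from the 2 genes may not be fully separated.

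TIMP2 (ENSG00000035862, chr17:78852977-78925387, minus strand) inhibits MMPs and bridges MMP14 and pro-MMP2. It had 3666, 3560 and 3854 normalized counts in untreated TIGK and 3778, 3522 and 3872 after H2O2, and 398.8, 374.6 and 375.2 untreated and 406.1, 410.4 and 332 treated in HaCaT. The treated and untreated libraries of each line overlapped, and the lines were far apart. TIMP2 was 9.63-fold lower in HaCaT untreated (log2 fold change -3.27 ± 0.0787, edgeR adjusted p = 3.29e-17) and 9.74-fold lower after H2O2 (-3.28 ± 0.0796, edgeR adjusted p = 3.8e-17), the widest gap between the lines among the 10 genes. Its response was 0.012 (95% interval -0.13 to 0.15) in TIGK and -0.0043 (95% interval -0.18 to 0.17) in HaCaT.

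TIMP3 (ENSG00000100234, chr22:32801701-32863043, plus strand) fell in both lines. Its normalized counts were 20870, 19990 and 21950 in untreated TIGK and 15470, 16480 and 15960 after H2O2. HaCaT had 3905, 3825 and 4281 untreated and 3330, 3070 and 2844 treated. No treated library reached the lowest untreated library of its line. The fall was 1.31-fold in TIGK (log2 fold change -0.39 ± 0.0619, edgeR adjusted p = 7.91e-05) and 1.3-fold in HaCaT (-0.38 ± 0.0639, edgeR adjusted p = 0.000109), and the responses differed by -0.012 (95% interval -0.2 to 0.17).

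In HaCaT, TIMP3 was 5.23-fold lower than in TIGK untreated (log2 fold change -2.39 ± 0.0655, edgeR adjusted p = 2e-16) and 5.18-fold lower after H2O2 (-2.37 ± 0.0659, edgeR adjusted p = 2.48e-16). SYN3, which overlaps TIMP3 on the opposite strand, had 0 to 14 raw counts per library. Of 8 fibroblast markers, the 3 tested (COL1A1, DCN and PDGFRB) were all lower in HaCaT under each treatment, as TIMP2 and TIMP3 were. Of all genes, 30.8% were lower in untreated HaCaT and 29.8% after H2O2. The summed level of the 8 was 2.2 to 2.34 RPKM in untreated and 2.57 to 2.58 in treated TIGK, and 0.895 to 1.18 and 0.931 to 1.15 in HaCaT. COL1A1 alone had a mean of 1.687 RPKM in untreated TIGK and 1.006 in untreated HaCaT. COL1A2, also on the list of substrates, was at 0 in all libraries, and COL3A1, LUM, THY1 and PDGFRA had at most 18 raw counts in any. Of the immune markers CD14 alone was tested and was lower in HaCaT (85.71 to 123.4 normalized counts in untreated TIGK, 0 to 13.26 in untreated HaCaT), while PTPRC and CD3E had at most 6 raw counts in any library and CD79A at most 14. VWF, the tested endothelial marker, went the other way, higher in untreated HaCaT (1.9, edgeR adjusted p = 0.00501). The part of these markers in the differences between the lines was not tested. In bulk RNA, fewer cells of a type and less RNA per cell cannot be told apart.

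The 16 other MMP genes of the list drawn up for comparison were mostly counted too rarely to test. This list and those that follow were drawn up with earlier results of these data known. Their counts beside all genes are therefore descriptions, not tests. MMP26 and MMP27 had 0 counts in all libraries, and 6 of the 16 passed the filter. None of the 6 was called in TIGK, beside 23.2% of all genes. DESeq2 called 0 there, beside 28% of all genes, and 2 had an unadjusted p under 0.05 in edgeR, as did 45.5% of all genes. In HaCaT 1 was called, beside 34.1% of all genes. It was MMP15, a membrane-type MMP, which was higher (log2 fold change 0.53 ± 0.135, edgeR adjusted p = 0.00348). DESeq2 called 2 there, beside 37.2% of all genes. Between the lines, untreated HaCaT had higher MMP28, the epidermal MMP epilysin (1.65 ± 0.121, edgeR adjusted p = 4.22e-10), and MMP17 (1.09 ± 0.111, edgeR adjusted p = 4.98e-08), and lower MMP24 (-1.28 ± 0.386, edgeR adjusted p = 0.00645). After H2O2 the same 3 differed, at 1.58, 1.74 and -2.75, and MMP15 was higher as well (0.69). These were 3 of the 6 untreated and 4 after H2O2, beside 59.9% and 60% of all genes. DESeq2 called 4 and 5, beside 62% and 62.1% of all genes. In the difference of the responses edgeR called 0 of the 6 and DESeq2 1, beside 5.3% and 8.58% of all genes. MMP12 and MMP7, named after their values were seen, did not pass the filter, with 3 to 41 and 2 to 21 raw counts in TIGK and at most 4 of each in HaCaT.

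Of the other inhibitors, only RECK, a membrane-anchored inhibitor of MMP9, MMP2 and MMP14, was tested. It had a mean of 169.7 normalized counts in untreated TIGK and 28.21 in untreated HaCaT, a log2 difference of -2.58 ± 0.231 (edgeR adjusted p = 7.78e-09), and -1.99 ± 0.225 after H2O2 (edgeR adjusted p = 2.14e-07). TIMP4 and A2M did not reach the filter, with at most 19 and 4 raw counts in a library.

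Among 7 tested genes of activation and docking, 1 was higher and 3 were lower after H2O2 in TIGK, beside 10.2% and 12.9% of all genes, and 2 were higher and 4 lower in HaCaT, beside 18.9% and 15.2%. PLAU, the urokinase that generates plasmin, moved in opposite directions, by 0.64 ± 0.0665 in TIGK (edgeR adjusted p = 6.42e-07) and -0.78 ± 0.065 in HaCaT (edgeR adjusted p = 3.23e-08), and the difference of these responses was 1.42 ± 0.093 (edgeR adjusted p = 1.11e-08). BSG (basigin or CD147, an inducer of MMPs) was higher in treated HaCaT (0.34 ± 0.0536, edgeR adjusted p = 4.86e-05), with a response that was lower in TIGK by 0.39 (edgeR adjusted p = 0.00259). PLAUR, the urokinase receptor, also rose in HaCaT (0.47 ± 0.0978, edgeR adjusted p = 0.000647). FURIN, the convertase that activates MMP14, fell in TIGK (-0.44) and HaCaT (-0.38), as did the endocytic receptor LRP1 (-0.47 and -1.18) and CD44, a docking receptor for MMP9 (-0.38 and -0.51). Untreated HaCaT exceeded untreated TIGK in 5 of the 7 (29.1% of all genes), PLAU (1.91) and PLAUR (1.45) most, and was lower in PLAT (-1.28, beside 30.8% of all genes). After H2O2 the same 5 were higher (30.2% of all genes), PLAUR (1.56) and BSG (1.15) most. PLAT (-0.88) and LRP1 (-0.49) were lower, beside 29.8% of all genes.

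ADAM and ADAMTS proteases, several of which TIMP3 inhibits, had calls in 1 direction after H2O2. In TIGK 6 of 8 tested were lower and 0 higher, beside 12.9% and 10.2% of all genes, led by ADAMTS15 (-0.98 ± 0.144, edgeR adjusted p = 3.68e-05) and ADAMTS1 (-0.36 ± 0.083, edgeR adjusted p = 0.00264). HaCaT had 2 of 8 lower and 0 higher, beside 15.2% and 18.9% of all genes, a count of falls near the background, namely ADAM19 (-1.87 ± 0.205, edgeR adjusted p = 1.01e-06) and ADAMTS15 (-1.62 ± 0.14, edgeR adjusted p = 4.82e-08). The median of the list was -0.26 in TIGK and -0.087 in HaCaT. The sole gene of the list whose responses differed was ADAM15 (-0.42 ± 0.0732, edgeR adjusted p = 0.000977). Untreated HaCaT was higher in 5 and lower in 2, beside 29.1% and 30.8% of all genes. Among the higher, ADAM19 (5.59) and ADAM8 (3.35) differed most, and ADAM15 (-0.69) and ADAM17 (-0.35) were the lower. The same numbers and genes held after H2O2, beside 30.2% and 29.8% of all genes. ADAM19 was then at 4.59, ADAM8 at 3.52, ADAM15 at -0.27 and ADAM17 at -0.32.

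The substrates, proteins of the basement membrane, adhesion and matrix that MMPs cleave, fell more often than they rose. The list was drawn up with earlier results of these data known, so its counts describe it and do not test it. In TIGK 10 of 12 tested were lower after H2O2 and 0 higher, beside 12.9% lower among all genes, with LAMB3 (-0.8 ± 0.0536, edgeR adjusted p = 1.69e-09) and FN1 (-0.73 ± 0.0705, edgeR adjusted p = 2.35e-07) changed most. HaCaT had 9 of 12 lower and 0 higher, beside 15.2% of all genes, LAMA3 (-1.03 ± 0.0538, edgeR adjusted p = 6.01e-11) and FN1 (-0.72 ± 0.07, edgeR adjusted p = 2.3e-07) most. The medians were -0.48 and -0.46. In the difference of the responses LAMA3 (0.35, edgeR adjusted p = 0.00506) and COL7A1 (0.47, edgeR adjusted p = 0.00764) passed the limit, with responses less negative in TIGK (-0.68 and -0.23) than in HaCaT (-1.03 and -0.7). Untreated HaCaT was higher in 9 of the 12 (29.1% of all genes), FN1 (1.88) and LAMA3 (1.8) most, and lower in 2 (30.8% of all genes), CDH1 (-0.81) and COL1A1 (-0.75). After H2O2 it was higher in 7 (30.2% of all genes), FN1 (1.89) and TNC (1.47) most, and lower in COL1A1 (-0.87) and CDH1 (-0.74).

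Of the AP-1 and ETS factors, which bind elements of several MMP promoters, 7 of 10 were higher and 2 lower after H2O2 in TIGK, beside 10.2% and 12.9% of all genes. In HaCaT 6 were higher and 1 lower, beside 18.9% and 15.2%. FOSB and FOS led with log2 fold changes of 3.97 and 3.56 in TIGK and 4.63 and 6.26 in HaCaT, whereas ETS1 fell by 1.1 and 1.59 and ETV4 by 0.34 in TIGK. The responses of 4 (FOSL1, JUN, JUNB and ETS1) were more positive in TIGK than in HaCaT, beside 2.32% of all genes. Those of 3 (FOS, JUND and ETV4) were less positive, beside 2.98%. FOSL1 stood at 1.03 in TIGK and -0.13 in HaCaT. Untreated HaCaT was higher in 5 and lower in 5, beside 29.1% and 30.8% of all genes. After H2O2 it was higher in 4 and lower in 4, beside 30.2% and 29.8%.

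**Figure D4:**
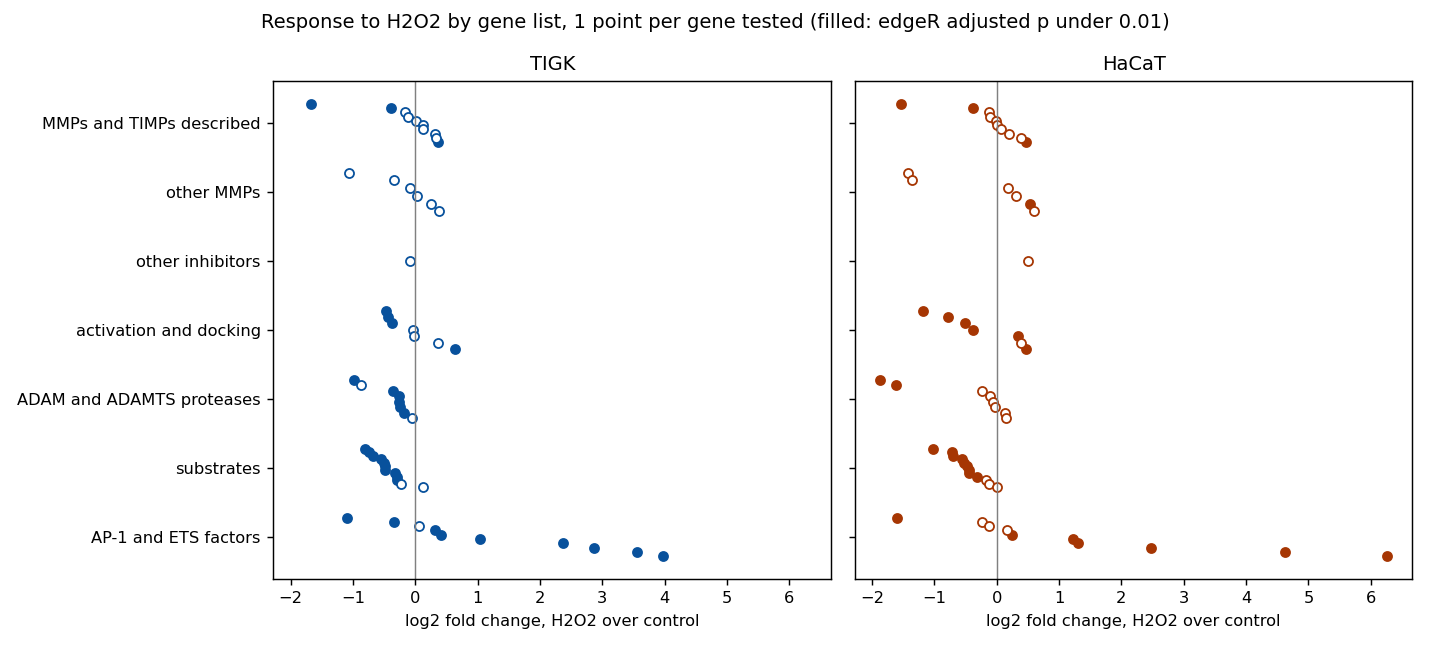
Log2 fold change after H2O2 of each tested gene of the MMP and TIMP genes and of 6 related lists (1 point per gene, filled where the edgeR adjusted p was under 0.01), in TIGK (left) and HaCaT (right). All called substrate and ADAM genes lie below 0, and the called AP-1 genes reach 3.97 in TIGK and 6.26 in HaCaT.

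The genes whose pattern over the 12 libraries was most like that of a member were sought among 11629 protein-coding genes, by the root mean square difference of log2 CPM centred on its mean. For TIMP1 these were GPX4 (0.062), TXNRD2 (0.066) and NTMT1 (0.0719), and for TIMP3 they were ANKRD50 (0.0938), SLC9A7 (0.117) and MYH10 (0.132). TIMP2 was nearest to EPHB2 (0.142), P2RX5 (0.158) and SLC39A8 (0.165), and MMP14 to OSBPL2 (0.0467), PANK2 (0.0497) and TMOD3 (0.0503). MMP2 was most like BACE1 (0.111), ETV4 (0.115) and MSANTD3 (0.117), MMP1 like C1orf112 (0.109) and ZNF207 (0.116) among others, and MMP10 like NOC3L (0.118), N6AMT1 (0.123) and MYL5 (0.124). MMP9 was nearest to OSCP1 (0.193), MPZL3 (0.194) and MAGED1 (0.198). MMP3 had no close match, with TMCC3 (0.354), ANGPTL4 (0.36) and GABRE (0.362) nearest. It had 44 to 365 raw counts per library, and the noise of such counts is part of these distances. MMP13, under 100 normalized counts in every group mean, was left out.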

How the data were processed

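The authors deposited 1 table of raw counts of reads per gene, not normalized, for 58735 genes of GRCh38 in the 12 libraries. Per the labels and methods, polyadenylated RNA was mapped with HISAT2, and StringTie and featureCounts are named for assembly and counting. The processing notes list HISAT2 2.0.0 and 2.0.5, StringTie 1.3.3b and featureCounts 1.5.0-p3, and the annotation release, the use of strand and the handling of reads that map to several places are not given in the sources used here. Such handling could move counts between overlapping genes. The authors' own fold changes and adjusted p-values were deposited in separate files and were not used.

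Counts were analysed with edgeR 4.0.16 in R 4.3.3. The 16618 genes that averaged 10 raw counts or more were tested, normalization was TMM (factors 0.962 to 1.04), all 4 groups shared 1 quasi-likelihood fit, and the limit was a Benjamini-Hochberg adjusted p of 0.01, without a limit on size. RPKM used the gene lengths of the table. The fit was tested on simulated data. Both counting noise and the spread between 3 libraries limit the precision, most of all for MMP13 and treated MMP3, the members with the fewest counts. DESeq2 1.42.0, other scalings, filters, limits, a block on replicate numbers and fits without each library were tried. Figures were drawn with matplotlib 3.10.9.

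The members and the comparison lists, written by hand from general knowledge, were chosen with earlier results of these data known. All members were named. Of each list, those named were the genes with the 2 largest changes past the limit in each direction and comparison, those at 0 counts, the 3 most alike to a member, and the members of counts of 5 or fewer. One gene that this rule selects is not reported here.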

Additional observations from a re-analysis of the deposited data

How the results depend on the processing

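Of 990 values of single members under the alternatives, 918 kept their direction and their side of the limit, 27 lost it, 10 gained it and 35 changed sign, none of them past the limit. Alternatives that changed only the limit used the same fit, so they could not change a direction. Fits without a library from outside a comparison could move it only through the shared filter, scaling and spread. The falls of MMP3 and TIMP3 in each line, the rise of TIMP1 in HaCaT and the line differences of MMP2, MMP9, MMP14, TIMP1, TIMP2 and TIMP3 were kept under all alternatives other than the one that also asked for a log2 fold change past 1. That limit left 1 member in TIGK, 1 in HaCaT and 4 between the untreated lines, and an adjusted p of 0.05 gave 5 in TIGK and 1 in the difference of the responses. Without a filter on low counts the difference of the responses held 1 member, MMP1 (0.42), with an edgeR adjusted p of 0.00269 in a range of 0.00269 to 0.226. Leaving out each library in turn gave 2 to 3 members in TIGK, 3 in HaCaT, 6 to 9 between the untreated lines, 6 to 7 after H2O2 and 0 to 1 in the difference. Beside these, 17.2% to 27.8% of all genes were called in TIGK, 26.3% to 35.2% in HaCaT and 3.23% to 6.55% in the difference. Between the lines the shares of all genes were 54.8% to 61.8% untreated and 55% to 60.5% after H2O2. With the groups fitted alone, MMP14 in TIGK passed (-0.16, edgeR adjusted p = 0.00956 in a range of 0.00956 to 0.145) and MMP3 after H2O2 did not (1.03, edgeR adjusted p = 0.0113 in a range of 4.25e-05 to 0.0281). The causes were not tested. The order of the members per length was the same in TPM at all 40 places. RPKM and TPM use the same gene lengths and differ only by a factor per library. The order within a library was thus fixed in advance, so this does not test it, and other gene lengths were not tried.

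MMP1 in HaCaT was -0.00769 with DESeq2, -0.00797 with relative log expression factors, -0.0177 without a filter and -0.0263 with the groups alone, and TIMP2 in HaCaT 0.0114 with library totals. In the difference of the responses TIMP3 was 0.0102 with DESeq2, 0.0102 with relative log expression factors and 0.046 without a filter, and MMP14 0.00502 without a filter. Without 1 library each, the ranges were -0.0676 to 0.0702 for MMP1 in HaCaT, -0.0698 to 0.226 for MMP9 in HaCaT, -0.0836 to 0.0903 for TIMP2 in HaCaT and -0.118 to 0.0433 for MMP13 between the untreated lines. In the difference of the responses they were -0.344 to 0.296 for MMP3, -0.0988 to 0.0154 for MMP14, -0.078 to 0.124 for TIMP2 and -0.0676 to 0.108 for TIMP3.

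Samples of one replicate number did not deviate together between groups (correlations from -0.269 to 0.0803), and 2 of 6 samples correlated best with their own number in the other treatment of their line, so the labels' numbers were not taken as a pairing. With a replicate block, calls over all genes went from 3850 to 3239 in TIGK, from 5664 to 5022 in HaCaT and from 881 to 606 in the difference, and members from 3 to 2, 3 to 3 and 0 to 0. Between the lines they went from 8 to 7 untreated and from 7 to 7 after H2O2. MMP1 missed the limit in TIGK (0.365, edgeR adjusted p = 0.0114) and between the untreated lines (0.308, edgeR adjusted p = 0.0128). Over all genes the difference of the responses held 1426 calls with DESeq2, 2019 at an adjusted p of 0.05 and 189 past a log2 fold change of 1. A log2 fold change past 1 left 621 genes in TIGK (3850 without it), 875 in HaCaT (5664), 4493 between the untreated lines (9951) and 4483 after H2O2 (9965), and an adjusted p of 0.05 gave 5998 in TIGK. Without 1 library each, the difference of the responses held 536 to 1092 genes (881 with all).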
